A study of Mus musculus with 10 samples.

Results

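Tight junctions seal the space between epithelial cells, and polarity complexes decide which face of such a cell is its apex. In the metanephric mesenchyme, the embryonic tissue that makes the nephrons, cells have neither sealed junctions nor an apex until they are induced by the ureteric bud and turn into epithelium. The ureteric bud is itself a polarised epithelium with sealed junctions. The 36 genes described here were chosen by function, with earlier results of these data known. They comprise 17 claudins, the membrane proteins that form the junction strands, and 19 other genes of the junction and of the Par, Crumbs and Scribble polarity complexes. Each was read from its brightest probe set with a single gene symbol, and all 36 were found among the 18193 genes measured. The question was whether these genes differed between mesenchyme with and without Wnt9b, and whether they followed bud tissue left after dissection.

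The data were 10 Affymetrix Mouse Genome 430 2.0 arrays of metanephric mesenchyme from kidneys at E11.5, 5 of Wnt9b-/- tissue (mutant) and 5 of Wnt9b+/+ littermates (wild type). Wnt9b encodes a Wnt ligand made by the ureteric bud. The sample labels give the controls as Wnt9b+/+, whereas the design text of the series gives Wnt9b+/-, and the sample labels were followed. Each array had its own pool of RNA from 25 to 30 mesenchymes freed of the bud with trypsin and pancreatin, so an array is a pool and not an animal. Values are probe-set signals, and log2 signal below means log2(signal + 1). A probe's brightness also depends on the probe, so signals are compared between arrays and never between genes.

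The tissue label was checked against 10 measured genes of the metanephric mesenchyme, among them the progenitor regulators Six2 and Eya1, and none was among the dimmest 40% of genes. Their mean log2 signal was 8.96 ± 0.30 (SD, n = 5) for the mutant, against 9.47 ± 0.092 (SD, n = 5) for wild type (exact permutation p = 0.00794, two-sided, the smallest that 10 arrays allow). The gene lists used here were chosen with earlier results of these data known. A p-value of a list mean is therefore no independent support for a difference. Bud tissue was not absent from the pools. The bud score, the mean log2 signal of 14 measured genes of the ureteric bud, none of them a member, ran from 6.66 to 7.69 in wild type and from 6.50 to 8.001 in the mutant. It did not differ detectably between the groups (difference +0.12, exact permutation p = 0.706). The score was lowest in mutant replicate 4 and wild-type replicate 1 and highest in mutant replicates 1 and 2. Epcam, an adhesion protein of the bud epithelium, had signals of 118 in mutant replicate 4 and 659 in mutant replicate 1, with 267 to 445 in wild type. Not every gene of the list went this way. Sox9 was at 475 in mutant replicate 4, its highest signal, and at 411 in mutant replicate 1. Gata3 was at 103.8 and 104.5 in these pools. The bud genes Krt19, Rab25 and Esrp1 were near the floor of the array in at least 1 pool. The arrays also fell into 4 with a high signal of the 18S control (1975 to 2587) and 6 with a low one (92.4 to 322). Both 18S sets were balanced between the genotypes, and differences within each set are given for some of the members.

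No member passed limma's test between mutant and wild type after Benjamini-Hochberg adjustment over all genes, against 0.0055% of all genes. At an unadjusted p under 0.05, 4 of 36 members differed, which is 11.1% against 5.49% of all genes. Of these, 3 were higher in the mutant (3.41% of all genes) and 1 was lower (2.08% of all genes). All 4 were claudins: Cldn9 was lower, and Cldn11, Cldn16 and Cldn18 were higher. On leaving out 1 array the count of 4 became 2, or 5.56%, in 6 of 10 cases, near the share of all genes. At any p, 14 of 36 members were higher in the mutant, against 54.9% of all genes. Group means of 2 members, Cldn9 and Cldn16, were at least 2-fold apart, against 3.1% of all genes. The median difference over the members was -0.03 in log2 signal, against +0.02 over all genes, and 25 of 36 members lay within 0.25 of no difference. The 19 members that are not claudins included none at an unadjusted p under 0.05, and their differences ran from -0.47 to +0.60. Of the members, 12 were among the dimmest 40% of genes and 24 above that limit.

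**Figure D1:**
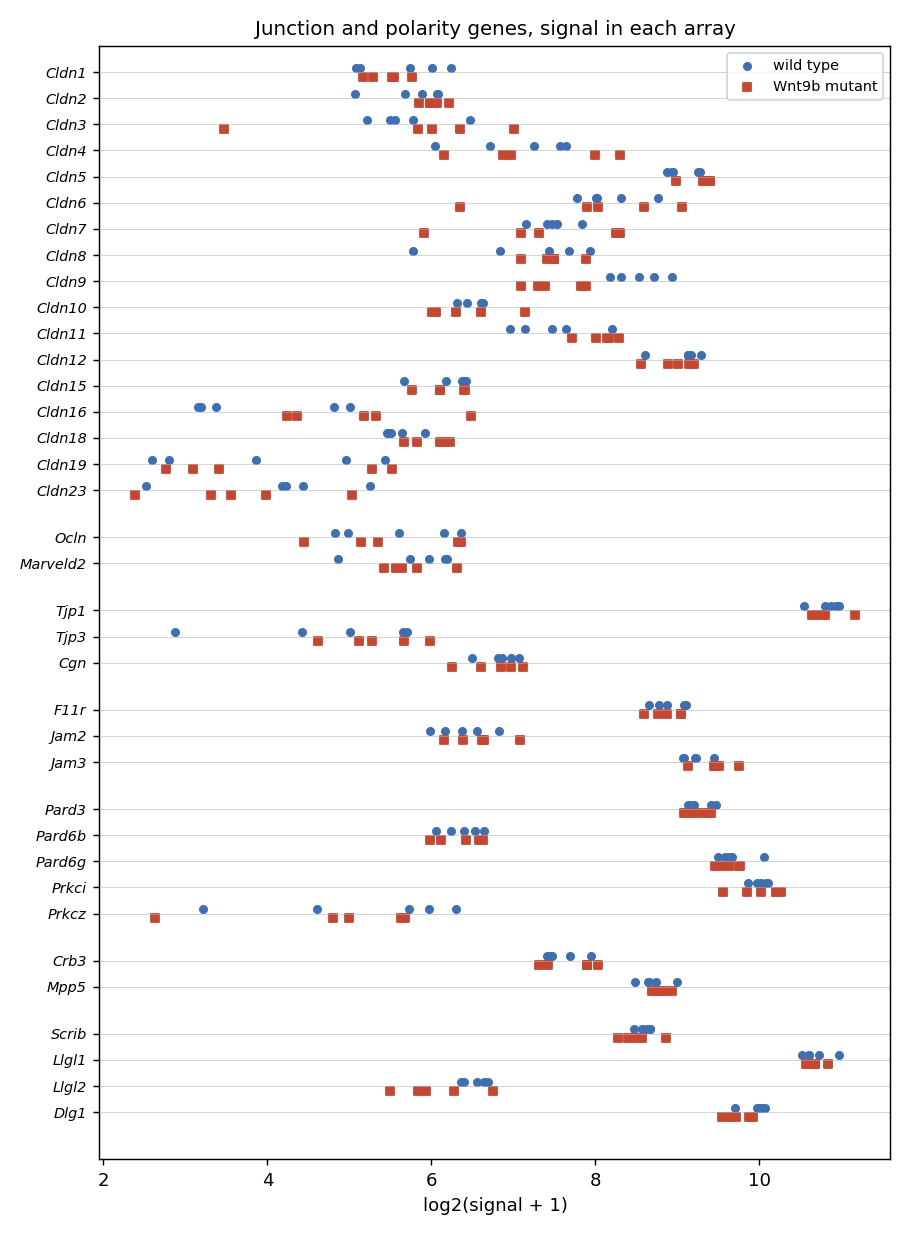
Log2(signal + 1) of each of the 36 members (rows, grouped by role) in the 5 wild-type arrays (blue circles) and the 5 Wnt9b mutant arrays (red squares), 1 point per array. Cldn9 is the member whose groups do not overlap, and Cldn3, Cldn6 and Cldn7 have 1 mutant array far below the others.

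Cldn9, a claudin of the young nephron tubule and of the inner ear, showed the clearest difference between the genotypes. Its signals were 288, 420, 489, 318 and 369 in wild-type replicates 1 to 5, and 156, 236, 167, 135 and 227 in mutant replicates 1 to 5. Every mutant pool lay below every wild-type pool. The mean log2 signal was 7.50 ± 0.35 (SD, n = 5) for the mutant, against 8.54 ± 0.31 (SD, n = 5) for wild type, a difference of -1.04 or 2.05-fold (SE 0.20, 95% interval -1.49 to -0.58). By unadjusted p it ranked 21 of 18193 genes, and after adjustment over all genes it was not called (limma adjusted p = 0.391). Groups that do not overlap were found for 1.21% of all genes and for this 1 of the 36 members. In pooled tissue, fewer cells that express a gene and less RNA per cell cannot be told apart.

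The second, dimmer probe set of Cldn9 had signals of 83.7 to 205 in wild type and 46.3 to 102 in the mutant. It was lower in the mutant by a similar amount (-0.84, SE 0.30), although there the groups overlapped. On the brighter probe set the high-18S arrays alone gave -1.16 and the low-18S arrays alone -0.95. It was thus of like size in both sets. With the bud score in the model Cldn9 had an unadjusted p under 0.05 as well, and across the alternatives its difference stayed between -1.16 and -0.84, while its limma adjusted p ran from 0.0614 to 0.9999.

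Genes that mark the first steps of the conversion to epithelium were lower on average in the same mutant pools, though not all of them. The score of 13 measured induction genes was 7.52 ± 0.19 (SD, n = 5) for the mutant, against 7.95 ± 0.13 (SD, n = 5) for wild type (exact permutation p = 0.0159). This list too was chosen with earlier results of these data known, so that p-value is no independent support. Of these genes 8 were lower and 5 higher in the mutant, and Sfrp2 was higher without overlap (+0.61, SE 0.15). Among the lower ones Wnt4, the ligand that drives the conversion, was at 484 to 558 in wild type and 186 to 343 in the mutant. The score of the mesenchyme genes, given above, was lower as well. In the fit with genotype and the induction score together, Cldn9 had a slope of 0.40 on that score, smaller than its SE of 0.71. That slope rests only on the spread within each genotype, because genotype is in the model. With the score alone, Cldn9 and Llgl2 had positive slopes at an unadjusted p under 0.05, as 4.38% of all genes had in either direction. Since the score itself differed between the genotypes, the fit without genotype cannot tell the 2 apart. The part of the progenitor and induction genes in the Cldn9 difference was not tested further.

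Cldn11, known as the claudin of myelin and of Sertoli cells, was higher in the mutant. Signals were 124, 295, 176, 140 and 198 in wild-type replicates 1 to 5 and 210, 312, 256, 281 and 286 in mutant replicates 1 to 5. The wild-type replicate 2 value lay within the mutant range, so the groups overlapped. The log2 difference was +0.58 (SE 0.23, limma adjusted p = 0.880). The high-18S arrays alone gave +0.23 and the low-18S arrays alone +0.82. Genes of neurons and neural crest, which include glial precursors, had a mean log2 score of 6.73 ± 0.29 (SD, n = 5) for the mutant, against 6.38 ± 0.26 (SD, n = 5) for wild type (exact permutation p = 0.0873). Of the 5 measured genes of that list 3 were higher and 2 lower. Stmn2 (+0.67), Tubb3 (+0.25) and the dim Foxd3 (+0.99) were higher, Elavl4 (-0.16) and the dim Sox10 (-0.01) lower. In the mutant the score was 6.32 in replicate 2, where Cldn11 was highest, and 7.10 in replicate 1, where it was lowest. In wild type it was 6.47 in replicate 2, where Cldn11 was highest, and 6.37 in replicate 1, where it was lowest. The part of these genes in the Cldn11 difference was not tested.

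Cldn16 and Cldn18, both dim, were the other members that were higher. Cldn16, a claudin of the thick ascending limb where magnesium is taken back, had signals of 31.3, 9.32, 8.11, 27.2 and 7.90 in wild-type replicates 1 to 5. In mutant replicates 1 to 5 it was at 39.0, 35.1, 88.1, 19.6 and 17.9. Low and high pools occurred in both groups, and mutant replicate 3 stood highest. The log2 difference of +1.21 (SE 0.52, limma adjusted p = 0.887) was +0.71 with a pseudocount of 16. It was +1.04 from the high-18S arrays alone and +1.32 from the low-18S arrays alone. Cldn18, a claudin of lung and stomach, was at 43.8, 49.1, 43.0, 59.4 and 44.5 in wild-type replicates 1 to 5 and 67.8, 70.2, 74.1, 55.5 and 49.8 in mutant replicates 1 to 5. Its log2 difference was +0.39 (SE 0.15, limma adjusted p = 0.858), with +0.17 from the high-18S arrays alone and +0.54 from the low-18S arrays alone. Both genes were among the dimmest 40%.

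A different pattern ran through a group of claudins and occludin, which varied strongly from pool to pool without a difference between the genotypes. Cldn6, a claudin of embryonic epithelia, had signals of 219, 259, 316, 435 and 256 in wild-type replicates 1 to 5 and 530, 385, 261, 80.3 and 239 in mutant replicates 1 to 5. The mutant pools thus spanned a 6.60-fold range on both sides of the wild-type pools. Cldn7, a claudin of the collecting system that descends from the bud, was at 142, 177, 185, 228 and 169 in wild-type replicates 1 to 5. In the mutant replicates it was at 314, 304, 158, 59.2 and 135. Ocln, or occludin, the founding membrane protein of the tight junction, was at 30.6, 27.4, 80.9, 70.2 and 47.8 in wild type and at 79.0, 81.0, 39.7, 20.8 and 34.2 in the mutant, in replicate order. All 3 were lowest in mutant replicate 4, the pool with the lowest bud score, and stood high in mutant replicates 1 and 2, the pools with the highest.

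Differences between the genotypes were -0.19 for Cldn6 (95% interval -1.19 to +0.80), -0.11 for Cldn7 (-1.04 to +0.81) and -0.06 for Ocln. The intervals are wide because the pools vary, and they do not show that the genotypes are alike. Within the high-18S arrays, which include mutant replicate 4, Cldn6 was at -0.89 and Cldn7 at -0.94. Within the low-18S arrays they were at +0.27 and +0.44. Differences of other members also took opposite signs, high-18S arrays first: Ocln -0.43 and +0.18, Cldn3 -0.61 and +0.46, Cldn8 -0.14 and +0.66. Those of Cldn23 were -1.77 and +0.40, of Marveld2 -0.43 and +0.23, of Cgn -0.42 and +0.14, and of Jam2 +0.59 and -0.07. The bud score itself moved by -0.41 and +0.47, the same way as these members except Jam2. Among other members, Cldn15 (-0.35 and +0.14) and Cldn19 (-0.25 and +0.30) went with it. Cldn1 (+0.09 and -0.37), F11r (+0.14 and -0.15) and Prkci (+0.17 and -0.16) went against it. A genotype difference read in either set alone is thus accompanied by one in bud genes.

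To ask which members follow the bud, every gene was fitted with genotype and the bud score together. A slope of 1 means that a gene's log2 signal moves by the same amount as the mean of the bud genes. No member was called after adjustment over all genes, and no other gene outside the bud list was either (0%). At any p the slope was positive for 26 of 36 members, against 53.7% of all genes. At an unadjusted p under 0.05 the slope of 8 members was positive and that of none negative, which is 22.2% of the members against 4.6% of genes with a positive slope at that p. They were Cldn3, Cldn6, Cldn7, Cldn8, Cldn23, Ocln, Cgn and Llgl2. Median slopes were +0.15 over the members and +0.03 over all genes. Since all slopes rest on the same 10 pools, these genes are not separate pieces of evidence. The mean log2 signal of 5 genes of mesothelium, another epithelial layer, was also lowest in mutant replicate 4 (4.46). It was highest in mutant replicates 1 (5.81) and 2 (5.83). No slope on that score was fitted, so whether the slopes are particular to bud tissue was not tested.

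Cldn6 had a slope of 1.40 (SE 0.21, limma adjusted p = 0.148) and ranked 11 of all genes by p, the bud list included. For Cldn7 the slope was 1.29 (SE 0.20, limma adjusted p = 0.177), and for Ocln it was 1.31 (SE 0.24, limma adjusted p = 0.261). Cldn6 and Cldn7 were called with 3 other settings: without the dimmest 40% of genes, with an intensity trend and robust moderation, and with array weights. Over all genes outside the bud list, members included, these settings called 10, 3 and 6 genes, in that order. Slopes of 1.02 to 1.68 for Cldn6 and 0.99 to 1.58 for Cldn7 were obtained over all alternatives. Without mutant replicate 4 and wild-type replicate 1, the pools farthest from the median score, 6 members, among them Cldn6, Cldn7, Ocln and Cldn3, had a positive slope at an unadjusted p under 0.05, where 8.6% of all genes had that p in either direction. Without mutant replicate 4 alone, 5 members did, against 6.28% of all genes, and Cldn3 was not among them.

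**Figure D2:**
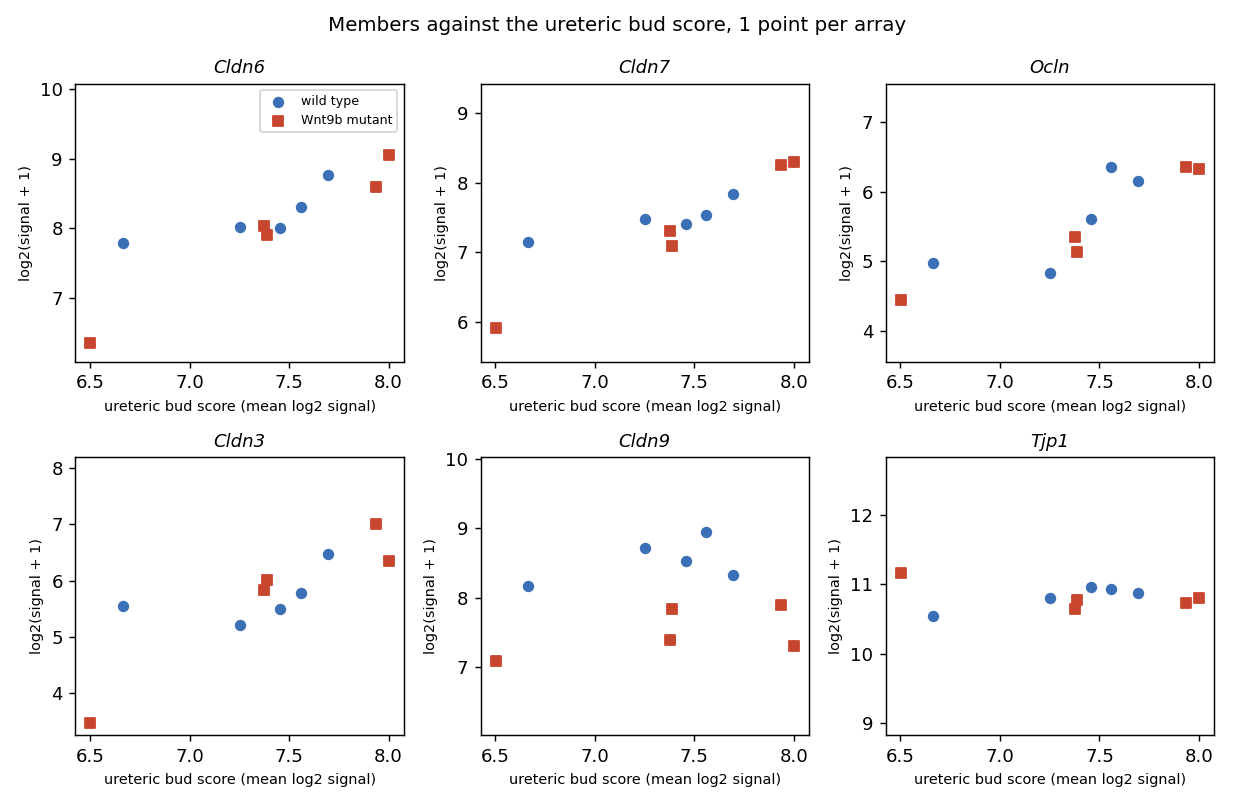
Log2(signal + 1) of 6 members (vertical axes, each spanning at least 4 log2 units) against the ureteric bud score, the mean log2 signal of 14 bud genes (horizontal axes), with 1 point for each wild-type array (blue circles) and mutant array (red squares). Cldn6, Cldn7, Ocln and Cldn3 go up with the score in both genotypes, Cldn9 is split by genotype, and Tjp1 has a slope of -0.05.

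The other claudins of the collecting system went the same way with larger errors. Cldn3, a sealing claudin, had a slope of 1.66 (SE 0.36, limma adjusted p = 0.446), with signals of 10.1 in mutant replicate 4 and 128 in mutant replicate 2 against 36.2 to 87.6 in wild type. Without mutant replicate 4 that slope was 0.83. The 3 other probe sets of Cldn3 gave positive slopes too, from 0.97 to 1.84. Cldn8, which is made in the distal nephron and collecting duct, had a slope of 0.90 and was lowest in wild-type replicate 1, at 53.8, the wild-type pool with the lowest score. Without that array the slope of Cldn8 was 0.50 and no longer among those with an unadjusted p under 0.05, and without mutant replicate 4 it was 1.45. Cldn4, the partner of Cldn3 in tight epithelia, had a slope of 0.94 and was not among the 8 (limma adjusted p = 0.614). Cldn23 had a slope of 1.38 at signals of 4.24 to 36.9, against 0.71 with a pseudocount of 16 and 0.19 without mutant replicate 4 and wild-type replicate 1.

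Among the scaffold and polarity genes, Cgn and Llgl2 had smaller slopes. Cgn, or cingulin, which ties the junction to actin and myosin, had a slope of 0.39 on its brighter probe set and -1.56 on the dimmer one. The mean of both gave -0.53. Llgl2, the epithelial member of the Lethal giant larvae pair, had a slope of 0.45 (SE 0.20, limma adjusted p = 0.614). Without mutant replicate 4 the slopes were 0.23 for Cgn and 0.28 for Llgl2.

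The upstream sequences of 3 claudins, Cldn4, Cldn6 and Cldn7, are shown as examples of claudins of the collecting system and embryonic epithelia that hold the same motif, a choice made after the values were seen. In lower case, 5′ to 3′ on the gene's strand, each run is the 250 bases before a transcription start listed by RefSeq on GRCm38.p6. Capitals mark the E-box CAGGTG, or CACCTG on the other strand, a sequence that Snail-family repressors of epithelial genes are known to bind.
Cldn4, chr5:134946935-134947184, minus strand: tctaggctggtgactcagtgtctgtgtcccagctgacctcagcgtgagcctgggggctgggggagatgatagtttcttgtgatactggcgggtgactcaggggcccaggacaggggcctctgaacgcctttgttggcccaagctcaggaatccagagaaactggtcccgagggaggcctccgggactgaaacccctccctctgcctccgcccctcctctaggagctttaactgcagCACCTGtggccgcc
Cldn6, chr17:23679115-23679364, plus strand: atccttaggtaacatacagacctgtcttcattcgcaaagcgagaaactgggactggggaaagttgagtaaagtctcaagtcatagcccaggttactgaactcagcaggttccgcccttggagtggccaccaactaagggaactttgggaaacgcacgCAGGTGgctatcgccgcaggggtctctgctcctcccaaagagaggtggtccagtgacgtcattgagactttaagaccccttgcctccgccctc
Cldn7, chr11:69965171-69965420, plus strand: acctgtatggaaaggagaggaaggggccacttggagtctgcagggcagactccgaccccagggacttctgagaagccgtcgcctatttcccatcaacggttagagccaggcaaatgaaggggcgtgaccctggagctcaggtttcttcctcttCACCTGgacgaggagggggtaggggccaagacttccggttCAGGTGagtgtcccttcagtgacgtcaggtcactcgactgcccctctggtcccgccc
Cldn7 has 2 listed starts, and the window of the start with the E-box is shown. Of the 27 members matched to the promoter table, 10 held the E-box within 250 bases before a listed start, or 37%, against 19.4% of all 27025 genes listed. Besides the 3 shown, these were Ocln, Tjp3, F11r, Pard3, Pard6b, Prkcz and Crb3. Members with and without a bud slope were among them, and Cldn3 and Cgn, both with a bud slope, did not hold it. A match describes these letters only, and genes with more listed starts have more windows to match.

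**Figure D3:**
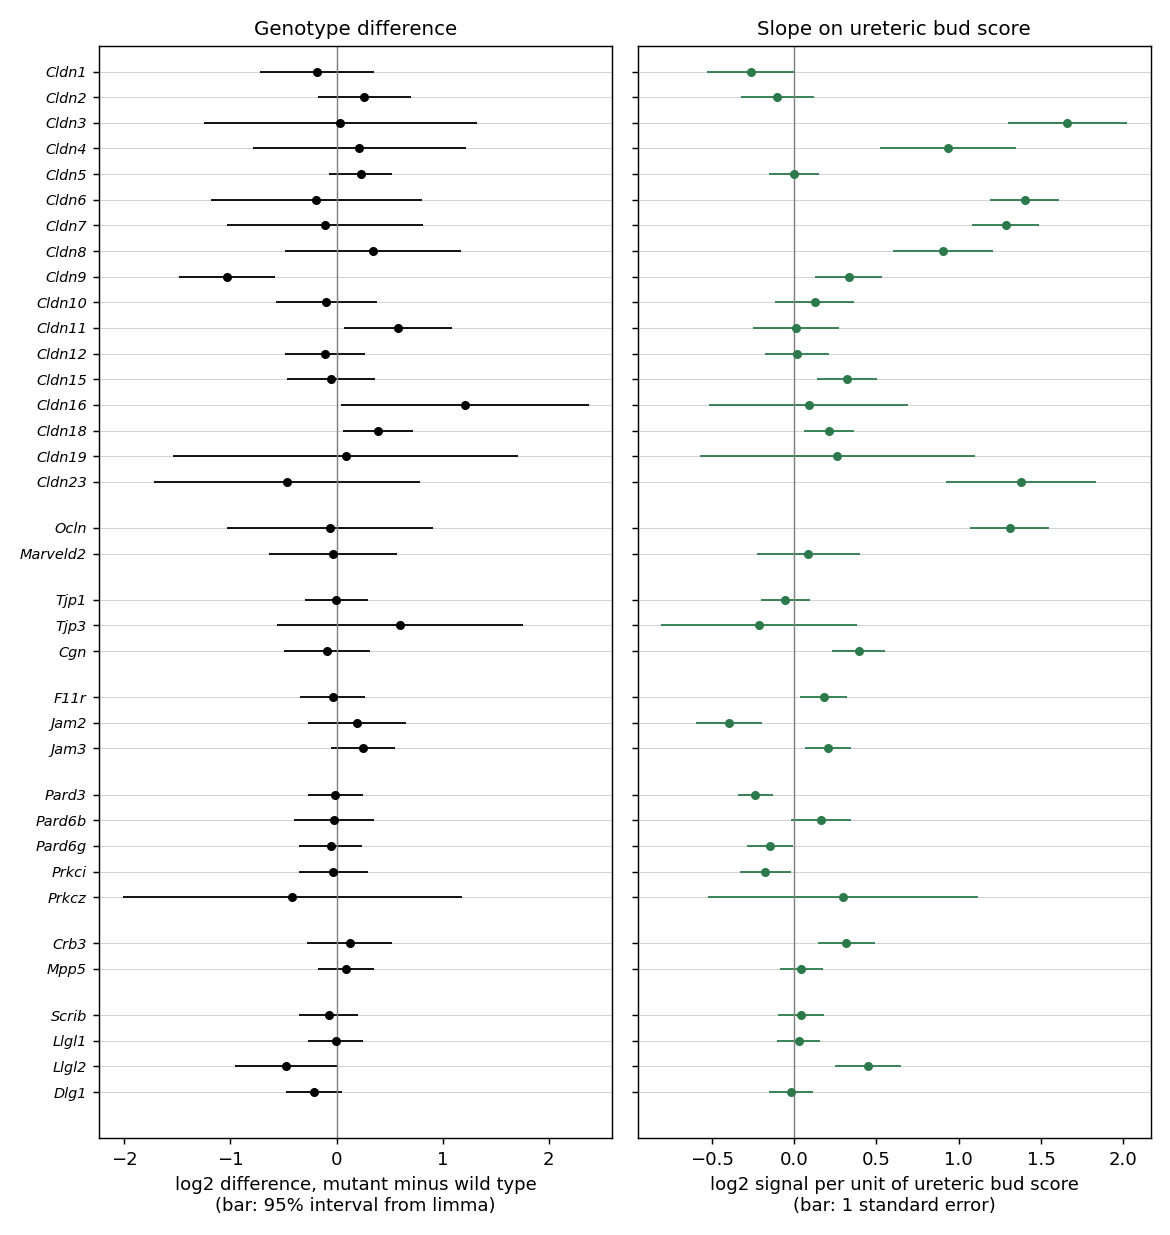
Left, log2 difference of each member between mutant and wild type with its 95% interval from limma. Right, slope of each member on the ureteric bud score with 1 standard error, from the fit with genotype. Rows are the 36 members by role. Cldn9 has the lowest difference and a slope of 0.33, whereas Cldn3, Cldn6, Cldn7 and Ocln have slopes above 1 and differences near 0.

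Cldn9 itself had a smaller bud slope, 0.33 (SE 0.20, limma adjusted p = 0.670) on its brighter probe set and 0.64 (SE 0.28) on the dimmer one. That slope had an unadjusted p under 0.05 on the dimmer probe set. It also did with the mean of its probe sets, and without mutant replicate 1. Cldn6 and Cldn9 are neighbouring genes in the RefSeq annotation. Within each array, log2 signal of Cldn9 minus that of Cldn6 was -0.49 ± 0.92 (SD, n = 5) for the mutant, against 0.36 ± 0.47 (SD, n = 5) for wild type. That contrast, chosen after the values were seen, did not pass (exact permutation p = 0.111). The pair thus cannot be said to differ in its response to genotype.

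Endothelium also has tight junctions. Cldn5, the claudin of blood vessels, had signals of 607, 470, 487, 622 and 494 in wild-type replicates 1 to 5 and 648, 676, 672, 635 and 504 in mutant replicates 1 to 5. Both groups held low pools, and mutant replicate 5 lay apart from the other mutant arrays. The log2 difference was +0.23 (SE 0.13, limma adjusted p = 0.946). On the endothelial score, the mean of 12 vessel genes, Cldn5 had a slope of 0.94 (SE 0.39, limma adjusted p = 0.746). The mutant mean of that score was 8.36 ± 0.15 (SD, n = 5), against 8.19 ± 0.16 (SD, n = 5) for wild type (exact permutation p = 0.127). Jam2, an adhesion molecule of vessels, had an endothelial slope of 0.69 (SE 0.75).

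In that fit 3 of 36 members had an unadjusted p under 0.05, or 8.33%, against 6.48% of all genes, and none was called. That count ran from 1 to 6 on leaving out 1 array, where 4.69% to 9% of all genes had such a p. It was 0 with median centring, against 5.44% of all genes. Cldn5 was not among those members in 7 of the 10 omissions. Only Cldn5 of these had a positive slope (4.37% of all genes), the other 2 a negative one. At any p 19 of 36 members had a positive slope, against 55% of all genes. Tjp3, or ZO-3, a scaffold of epithelial junctions, had a slope of -4.85 at signals of 20.5, 31.2, 51.1, 6.30 and 49.4 in wild-type replicates 1 to 5 and 23.6, 37.6, 62.1, 33.8 and 49.9 in mutant replicates 1 to 5. The lowest value, in wild-type replicate 4, stood far below the rest, and no slope was called. Cldn1, the claudin of the epidermal barrier, had signals of 52.5, 63.4, 74.3, 34.0 and 32.9 in wild-type replicates 1 to 5. They were 34.9, 37.9, 45.6, 44.9 and 53.2 in mutant replicates 1 to 5, within the wild-type range. Its probe sets disagreed on the genotype difference, with -0.19 on the brightest and +0.69, -0.20 and -1.24 on the others.

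Junction scaffolds and adhesion molecules shared by many cell types differed little, and none passed. Tjp1, or ZO-1, the scaffold that links claudins and occludin to actin, ran from 1494 to 2001 in wild type and from 1604 to 2291 in the mutant, with a difference of -0.0039 (95% interval -0.30 to +0.29). F11r, or JAM-A, differed by -0.04 (SE 0.14). Jam3, or JAM-C, was the junctional adhesion molecule with the smallest p. Its signals were 596, 596, 699, 543 and 536 in wild-type replicates 1 to 5 and 699, 862, 701, 558 and 729 in mutant replicates 1 to 5, a difference of +0.25 (SE 0.14, limma adjusted p = 0.942). Mutant replicate 4 was within the wild-type range. Marveld2, or tricellulin, which seals the points where cells meet in threes, differed by -0.03 (SE 0.27) and had a bud slope of 0.09.

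Par complex genes place the apical domain by bringing atypical protein kinase C to the cell's apex. Pard3, Pard6b, Pard6g and Prkci differed by -0.01 to -0.06, with standard errors of 0.12 to 0.17. Signals of Prkci, the atypical kinase iota, ran from 930 to 1103 in wild type and from 752 to 1232 in the mutant. Prkcz, the zeta kinase, was dim, at 8.28, 77.5, 62.0, 23.3 and 52.1 in wild-type replicates 1 to 5 and 26.8, 30.9, 5.18, 50.3 and 48.6 in mutant replicates 1 to 5. Both groups held a pool under 10, and the difference of -0.42 was smaller than its standard error of 0.72. On the brightest probe sets none of these 5 genes had a bud slope at an unadjusted p under 0.05, and that of Pard3 was -0.23 (SE 0.11, limma adjusted p = 0.614). With an intensity trend Pard3 did have such a p. Dimmer probe sets differed: those of Prkcz had slopes of 1.94 (SE 0.54) and 1.30 (SE 0.51) against 0.30 on the brightest. The second of Pard6g had 0.53 (SE 0.20) against -0.15. All 3 of these dimmer probe sets had an unadjusted p under 0.05, and so did Prkcz with the mean of its probe sets.

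Crumbs and Scribble complexes oppose each other at the apex and the side of the cell. Crb3, the epithelial Crumbs protein, differed by +0.12 (SE 0.18) and had a bud slope of 0.32 (SE 0.17). Its dimmer probe sets had larger bud slopes, 1.04 (SE 0.22) and 0.92 (SE 0.63), and the genotype difference on the former was +0.68 (SE 0.36). Averaged over its probe sets, Crb3 had a bud slope with an unadjusted p under 0.05. Mpp5, its adaptor PALS1, had signals of 401, 358, 428, 400 and 510 in wild-type replicates 1 to 5 and 429, 489, 437, 455 and 412 in mutant replicates 1 to 5, which overlapped. The difference was +0.09 (SE 0.12). The dimmer probe sets of Mpp5 gave -0.15 and -0.41. Scrib was at 353, 405, 391, 378 and 405 in wild-type replicates 1 to 5 and 310, 466, 338, 378 and 360 in mutant replicates 1 to 5, with a difference of -0.07 (SE 0.12). Its values in the mutant lay on both sides of wild type.

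Llgl1 and Llgl2, the Lethal giant larvae pair of the basolateral side, behaved unlike each other in size. Llgl1 differed by -0.01 (SE 0.12). Llgl2 had signals of 103, 83.7, 93.3, 98.9 and 81.0 in wild-type replicates 1 to 5 and 76.4, 107, 60.4, 44.0 and 56.0 in mutant replicates 1 to 5. All mutant pools except replicate 2 lay below the wild-type range. The difference was -0.47 (SE 0.22, 95% interval -0.96 to +0.01, limma adjusted p = 0.908), with -0.72 from the high-18S arrays alone and -0.31 from the low-18S arrays alone. In the fit with genotype and the induction score, Llgl2 was the only member with an unadjusted p under 0.05 (slope 1.42, SE 0.61, limma adjusted p = 0.819). That is 2.78% of members against 6.05% of all genes, or 3.84% with a positive slope. At any p 20 of 36 members had a positive slope on that score, against 54.9% of all genes. Dlg1 differed by -0.21 (SE 0.12, limma adjusted p = 0.943).

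Claudins of the mature nephron segments had no unadjusted p under 0.05 apart from Cldn16. Cldn2, a cation pore of the proximal tubule, differed by +0.26 (SE 0.19), Cldn10 of the thick limb by -0.10 (SE 0.21) and Cldn19, the partner of Cldn16, by +0.08 (SE 0.73). Cldn12 and Cldn15 differed by -0.11 and -0.06. Signals of Cldn19 ran from 5.02 to 44.8, so its interval of -1.54 to +1.71 covers large changes in either direction.

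**Figure D4:**
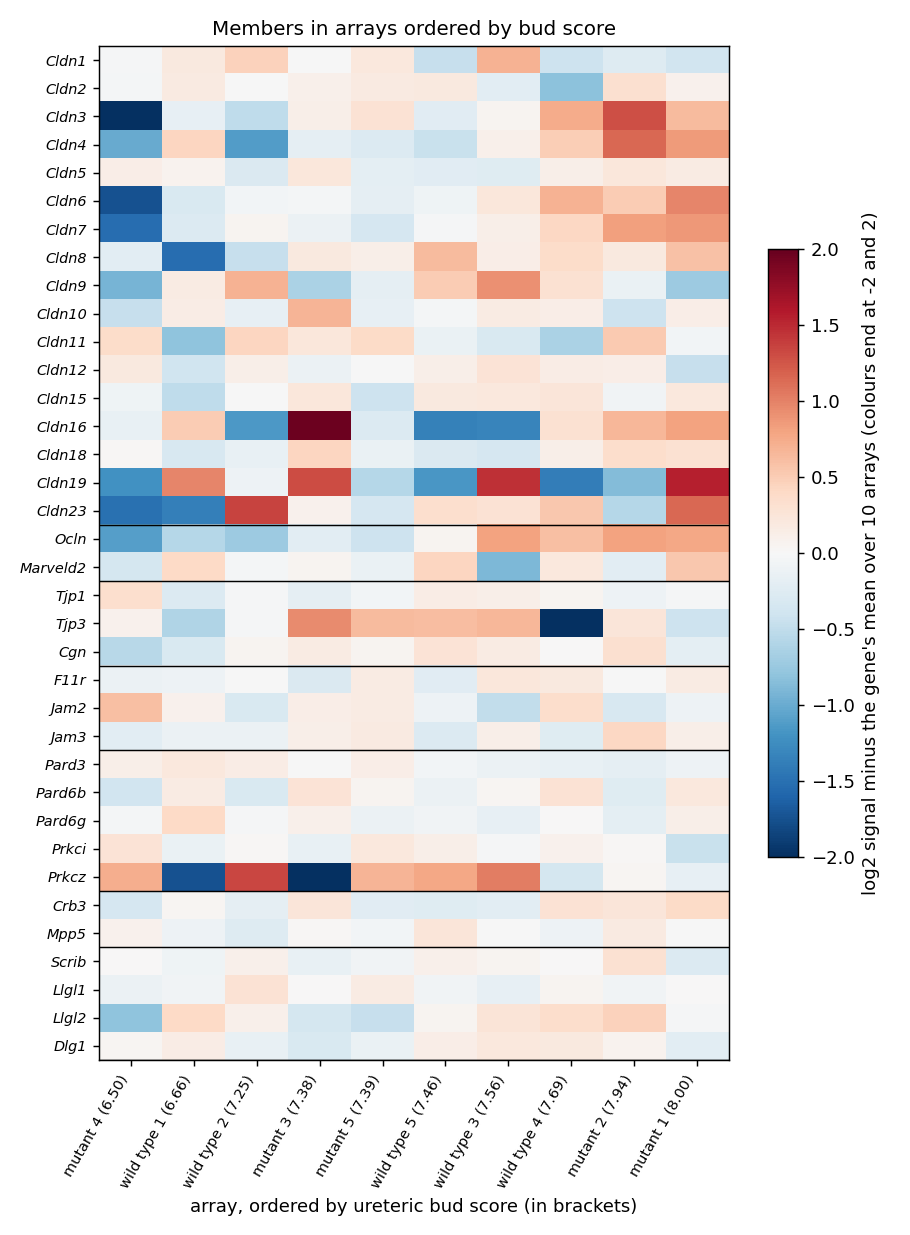
Log2 signal of each member (rows, by role, with black lines between roles) minus its mean over the 10 arrays, in arrays ordered from the lowest to the highest ureteric bud score (columns, score in brackets). Blue is below and red above the gene's mean, with colours ending at -2 and 2. Cldn3, Cldn6, Cldn7 and Ocln go from blue to red along the order, and the Par, Crumbs and Scribble rows stay pale apart from Prkcz and Llgl2.

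A further list of 43 measured junction and polarity genes that are not members was compared in the same fits. None was called between the genotypes, and 5 had an unadjusted p under 0.05, or 11.6%, against 5.49% of all genes. Of these 1 was higher (3.41% of all genes) and 4 were lower (2.08%). Cxadr, the coxsackievirus and adenovirus receptor of junctions, was at 319 to 384 in wild type and 246 to 308 in the mutant without overlap (-0.36, SE 0.11). Igsf5, or JAM4, was at 73.2 to 128 and 41.4 to 77.9 (-0.81, SE 0.21). Crb1, another Crumbs protein, was at 81.8 to 104 and 51.8 to 79.8, again without overlap (-0.48, SE 0.14), and Pard3b was lower by 0.44 (SE 0.17). Lin7a, an adaptor in the Crumbs complex, was higher, at 42.3 to 57.2 in wild type and 76.8 to 86.6 in the mutant (+0.73, SE 0.12, limma adjusted p = 0.283). Lin7a and Igsf5 were among the dimmest 40% of genes. Values are from the brightest probe set, and the other probe sets of Cxadr, Crb1, Pard3b and Lin7a are not described here. On the bud score, 4 of these 43 genes had an unadjusted p under 0.05, or 9.3%, against 8.08% of all genes: Lsr, Ildr1 and Nectin1 with positive slopes and Mpdz with a negative one.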

How the data were processed

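RNA of 10 pools of metanephric mesenchyme was hybridised to Affymetrix arrays. The authors deposited probe-set intensities on a linear scale, already scaled: the mean after trimming 2% at each end was 250.0 on every array. How probes were summarised: not given in the sources used here. Of 45101 probe sets, 64 controls were left out, and the 34945 with 1 gene symbol in the platform annotation were reduced to the brightest per gene by mean log2(signal + 1), giving 18193 genes. The members had 68 probe sets, and RefSeq (GRCm38.p6) held all 36 symbols. No further normalization was applied, as array medians lay between 5.99 and 6.30 in log2 signal. The number of arrays limits the precision.

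Tests were limma 3.58.1 in R 4.3.3 (lmFit, eBayes, two-sided, Benjamini-Hochberg over all genes, called at an adjusted p under 0.05), with genotype alone or with genotype and 1 list score, and exact permutation of list scores over 252 arrangements. The fits were tested on simulated data. Replicate numbers follow the sample order and pair nothing. The members, lists and tests were chosen with earlier results of these data known. Values in every array are given for members with an unadjusted p under 0.05 or no overlap, for the smallest p of each role, and for the 3 smallest p of each slope fit. Listed genes with no single-symbol probe set are not analysed here. Other settings covered probe sets, dim genes, normalization, moderation, weights, pseudocount, blocks, the 18S sets and single arrays left out. Slopes were not fitted with the replicate block of shared title words or in either 18S set alone.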

Additional observations from a re-analysis of the deposited data

Results flagged for a closer look

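For the 36 members and 10 list scores, the gap between the most extreme of the 5 values of a genotype and its neighbour was divided by the spread of all 5. Of 92 groups of values 5 had a gap that large, where chance gives about 1 in 20, or 4.6. In mutant replicate 5 the log2 signal of Cldn5 was 8.98, with 9.31 as the nearest value in its group. Cldn12, a widely expressed claudin, was at 8.61 in wild-type replicate 1, with 9.13 next. Prkcz was at 2.63 in mutant replicate 3, with 4.80 next, at signals near the floor of the array. Dlg1 was at 9.71 in wild-type replicate 2, with 9.98 next. The nephron induction score was 7.86 in mutant replicate 2, above the next mutant value of 7.48 and within the wild-type range of 7.73 to 8.04.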

How the results depend on the processing

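No member was called between the genotypes in any of 23 alternatives. Cldn9 had an unadjusted p under 0.05 in all 24 run on it. The count of members at that p was 4, and 2 when both arrays with the brightest hybridisation controls were left out (Cldn9 and Llgl2, so the 3 higher claudins were lost) and 2 to 4 on leaving out 1 array. The lowest count of 2 came without wild-type replicates 1, 3 or 5, or mutant replicates 1, 2 or 3. A count of 2 is 5.56% of the members, against 5.73% of all genes without the brightest-control arrays and 4.82% to 6.15% in those 6 omissions, so there the share was near that of all genes. Slopes on the bud score called 2 members, Cldn6 and Cldn7, without the dimmest 40% of genes, with an intensity trend, and with array weights, and 0 otherwise. Those 3 settings called 10, 3 and 6 of all genes outside the bud list, in that order. The slope of Cgn turned to -0.53 with the mean of its probe sets and -0.12 without the 2 arrays farthest from the median score. The bud score difference of +0.12 was -0.41 in the high-18S arrays alone and ran from -0.049 to +0.35 on leaving out 1 array, with the negative values without wild-type replicate 1 (-0.049), mutant replicate 1 (-0.024) or mutant replicate 2 (-0.0081). The induction score difference was -0.62 in the high-18S arrays alone and -0.31 in the low-18S arrays alone. The endothelial score difference ran from 0.12 to 0.23 on leaving out 1 array, with an exact permutation p of 0.0397 without mutant replicate 5. On the induction score, Llgl2 had an unadjusted p under 0.05 in the full set, but not without wild-type replicates 1 or 4 or without any 1 of mutant replicates 2 to 5. The cause of these changes was not tested. Titles of 3 mutant arrays each share a word with 1 wild-type title. In these pairs, deviations from the group means correlated at 0.0982 to 0.143. Among the arrays of the other genotype, each array correlated best with its own partner. With that replicate block, 5 members had an unadjusted p under 0.05 between the genotypes, or 13.9% against 6.13% of all genes. No member was called, and 0 of all genes were. Slopes were not fitted with it.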
